A study of Arabidopsis thaliana with 27 samples.

Results

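Tetrapyrroles are the ring pigments of plants, and 33 genes of *Arabidopsis thaliana* that encode the steps of tetrapyrrole, chlorophyll and heme synthesis are described here, taken from the 33602 genes of the table by a fixed list of gene identifiers. Wild-type Col-0 seedlings were grown for 7 days on medium with iron and phosphate (+Fe+P) and were then moved to fresh +Fe+P, to medium without iron (−Fe+P), or to medium without iron and low in phosphate (−Fe−P). Whole shoots were harvested 39, 52 and 76 h after transfer under continuous light, which gives 9 groups of 3 biological replicates and 27 RNA-seq libraries of polyadenylated RNA. The genotype was the same in all groups, no group on +Fe−P medium was analysed here, and a library from a whole shoot holds every cell type of the shoot, so fewer cells of a type and less RNA per cell cannot be told apart.

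Expression is given in TPM, a length-scaled share of each library's transcripts that sums to 1000000 in each sample. Of the 33 genes, 32 averaged 1 TPM or more across the 27 libraries and were tested; their means ran from 14.4 to 949 TPM, and the fewest reads behind any value of theirs in a sample was 513. The exception was *PORA* (AT5G54190), a protochlorophyllide oxidoreductase of dark-grown seedlings, which was between 0 and 0.134 TPM in every library. A gene is said to have passed where limma's Benjamini-Hochberg adjusted p over 18910 genes was under 0.05, and a fold change is always that of log2(TPM + 0.5). Group means are given ± SD of 3 libraries. The p-values weigh a difference against the spread between libraries within groups, pooled over the 9 groups. Genes of close sequence may share reads (*HEMA1* and *HEMA2*, *GSA1* and *GSA2*, *HEME1* and *HEME2*, *PPOX1* and *PPOX2*, *CHLI1* and *CHLI2*, *PORB* and *PORC*, *FC1* and *FC2*), and their levels are uncertain to that extent.

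All tetrapyrroles of plants start from glutamate, which is bound to its tRNA, reduced by glutamyl-tRNA reductase and turned into 5-aminolevulinic acid. Molecules of this acid are joined and trimmed to protoporphyrin IX in steps common to chlorophyll and heme. At protoporphyrin IX the path divides: magnesium chelatase inserts magnesium and leads to chlorophyll, and ferrochelatase inserts iron and leads to heme and to the bilin of phytochrome. A side branch before protoporphyrin leads to siroheme, the cofactor of nitrite and sulfite reductases. Iron is the substrate of ferrochelatase, and it is also part of enzymes of the chlorophyll branch, among them the cyclase that forms the fifth ring and the oxygenase that makes chlorophyll b.

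Depth recovered from the steps of the TPM values was 25.574 to 56.503 megareads per library, with a median of 44.193. Leaf mesophyll markers summed to 33839.5 to 46520.5 TPM, and 8 root markers to between 0.640 and 19.3 TPM. Library 1 of the −Fe−P group stood apart at 39 h: 671 of its genes were 2-fold or more from the mean of its group mates, against 39 to 229 in each other library, and its 9 seed markers summed to 62.5 TPM, against 0.0288 to 7.15 TPM elsewhere. Without that library, 8 of the 32 genes were lower on −Fe−P than on +Fe+P at 39 h, against 7 with it, when 5.18% of all genes were lower.

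The 5 genes *HEMA1*, *CHLH*, *GUN4*, *CHL27* and *CAO* were called at least 2-fold lower on −Fe+P at 76 h, and *FC1* and *HEMA2* were the genes of the pathway with the largest rises there. The 250 bases before the annotated start of every gene were read from the RefSeq TAIR10.1 genome and searched on both strands for 6 motifs. The windows of *HEMA1* (AT1G58290, chr1:21626403-21626652, minus strand), *CHLH* (AT5G13630, chr5:4392430-4392679, minus strand), *CAO* (AT1G44446, chr1:16851272-16851521, minus strand), *HEMA2* (AT1G09940, chr1:3239555-3239804, minus strand) and *FC1* (AT5G26030, chr5:9096201-9096450, plus strand) are printed 5′ to 3′ because these genes carry the results below. Of *CHL27* (AT3G56940, plus strand), the 189 bases of chr3:21076316-21076504 that no neighbouring gene covers are printed. The window of *GUN4* (AT3G59400) lies inside the annotation of a neighbour and is not printed. Capitals mark motif matches, and no match printed overlaps another.
HEMA1: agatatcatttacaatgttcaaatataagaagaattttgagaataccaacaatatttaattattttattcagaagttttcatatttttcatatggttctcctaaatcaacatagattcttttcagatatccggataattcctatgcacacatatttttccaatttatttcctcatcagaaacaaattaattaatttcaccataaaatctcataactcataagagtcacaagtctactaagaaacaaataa
CHLH: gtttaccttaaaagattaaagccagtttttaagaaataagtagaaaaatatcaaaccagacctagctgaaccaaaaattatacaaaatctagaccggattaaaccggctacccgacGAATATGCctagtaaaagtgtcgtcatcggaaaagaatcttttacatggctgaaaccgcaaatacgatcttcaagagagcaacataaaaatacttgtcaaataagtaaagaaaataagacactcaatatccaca
CHL27: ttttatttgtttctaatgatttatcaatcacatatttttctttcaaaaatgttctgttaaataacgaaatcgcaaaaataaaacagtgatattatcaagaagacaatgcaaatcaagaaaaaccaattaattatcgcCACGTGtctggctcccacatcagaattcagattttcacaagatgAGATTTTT
CAO: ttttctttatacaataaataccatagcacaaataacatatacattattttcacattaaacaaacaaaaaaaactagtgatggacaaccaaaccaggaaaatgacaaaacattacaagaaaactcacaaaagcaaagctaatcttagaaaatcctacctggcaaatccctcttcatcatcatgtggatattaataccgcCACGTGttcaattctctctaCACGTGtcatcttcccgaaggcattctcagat
HEMA2: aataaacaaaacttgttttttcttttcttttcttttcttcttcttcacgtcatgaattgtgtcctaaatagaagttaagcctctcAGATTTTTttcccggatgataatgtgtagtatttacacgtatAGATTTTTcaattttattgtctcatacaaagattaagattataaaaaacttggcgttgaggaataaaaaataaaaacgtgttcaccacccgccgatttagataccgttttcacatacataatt
FC1: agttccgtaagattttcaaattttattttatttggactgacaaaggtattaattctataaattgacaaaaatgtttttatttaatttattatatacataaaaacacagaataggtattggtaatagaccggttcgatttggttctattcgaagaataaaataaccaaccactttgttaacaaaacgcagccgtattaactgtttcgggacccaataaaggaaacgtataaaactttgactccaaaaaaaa

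The G-box CACGTG, bound by HY5 and the PIF factors, lay 52 and 32 bases before the start of *CAO* and 52 bases before that of *CHL27*. It was in the windows of 5 of the 33 genes, and in 6.49% of the windows of 27443 protein-coding nuclear genes. The CCA1 binding site AAAAATCT lay in 5 of the 33 windows, against 6.69% of all, among them *CHL27* at 8 bases and *HEMA2* at 165 and 123 bases before the start, each time as its reverse complement. The phosphate-response motif P1BS, GNATATNC, lay in 2 of the 33 windows, *CHLH* at 134 bases and *CHL27* in the part not printed, against 5.46% of all. The I-box GATAAG was in 3 windows (12.3% of all), the GLK-type motif CCAATC in 3 (10.2% of all) and the evening element AAATATCT in 2 (4.79% of all). The windows of *HEMA1* and *FC1* held none of the 6 motifs, which says only that these letters are not in these windows.

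Loss of iron was compared first. On −Fe+P against +Fe+P, 8 of the 32 genes were lower at 39 h (2.45% of all genes tested), 10 at 52 h (3.57% of all) and 11 at 76 h (9.43% of all). None was higher at 39 h (3.43% of all), 4 were higher at 52 h (28.5% of all) and 7 at 76 h (29.5% of all). The median log2 fold change of the 32 genes was −0.06 at 39 h, 0.05 at 52 h and −0.09 at 76 h. The median over all genes was 0.05, 0.16 and 0.11. At a change of at least 2-fold, 2 genes were lower at 39 h (0.439% of all), 1 at 52 h (0.687%) and 5 at 76 h (1.2%), and 1 was higher at 76 h (4.42%).

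With phosphate low as well, more of the pathway was lower at the last time. On −Fe−P against +Fe+P, 7 genes were lower at 39 h (5.18% of all), 14 at 52 h (11.6%) and 22 at 76 h (21.9%), while 1 was higher at 39 h (10.8%), 2 at 52 h (28.8%) and 2 at 76 h (33.7%). The median log2 fold change of the 32 genes went from −0.14 at 39 h to −0.15 and −0.51, beside 0.04, 0.11 and 0.10 over all genes. At least 2-fold lower were 3 genes at 39 h (0.55% of all), 1 at 52 h (0.793%) and 1 at 76 h (2.6%), and 1 was at least 2-fold higher at 76 h (6.34%). Both sets of comparisons share the +Fe+P libraries. With libraries scaled by their median of ratios, which sets the median over all genes near 0, the count lower at 76 h was 17 on −Fe+P and 22 on −Fe−P. The share of all genes lower was not counted under this scaling, so these counts have no background beside them.

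**Figure D1:**
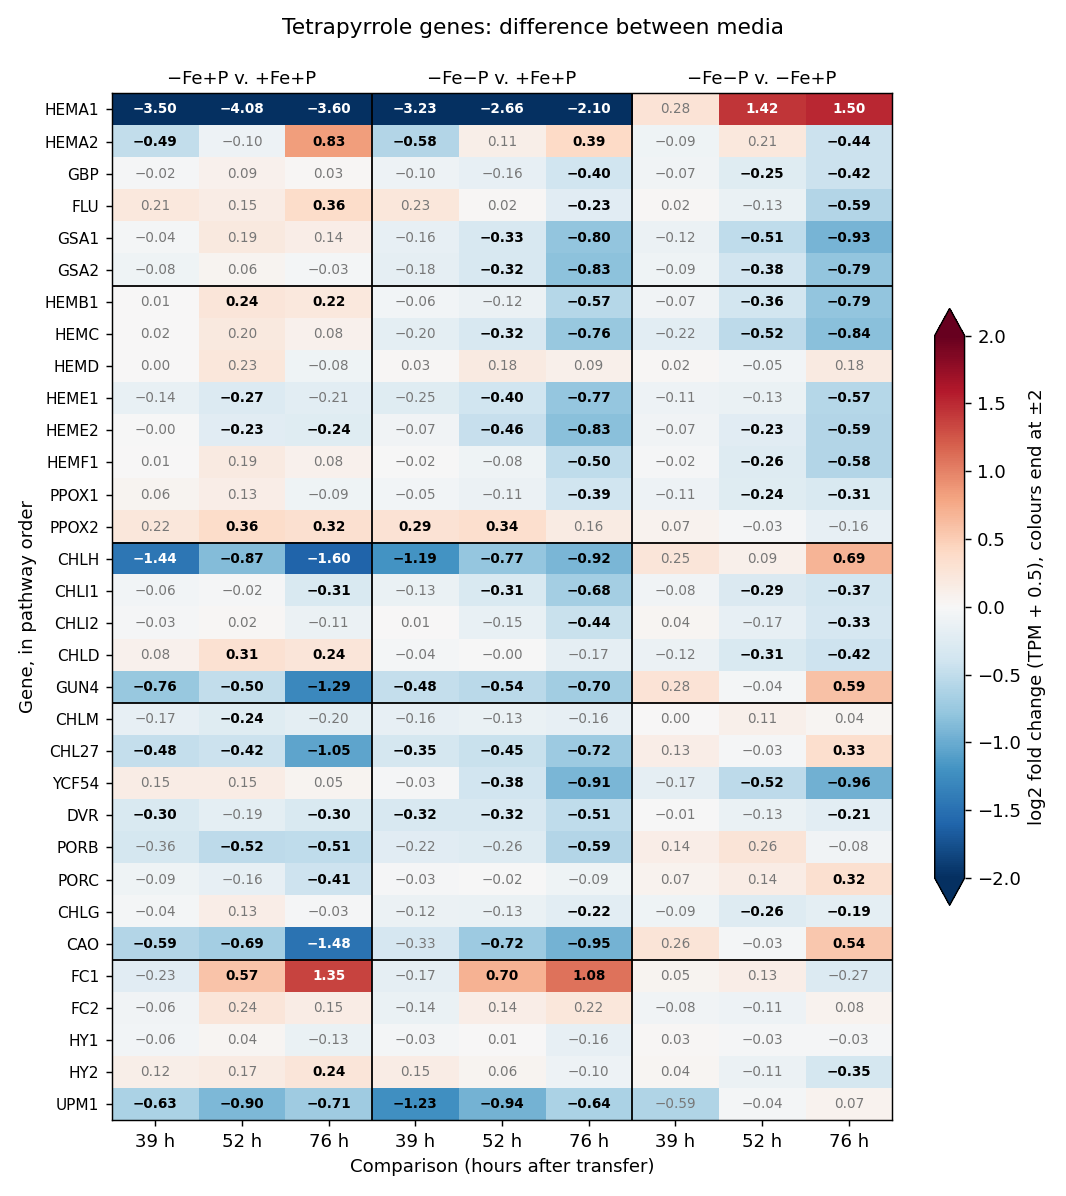
Log2 fold change of log2(TPM + 0.5) for the 32 tested genes (rows, in pathway order, lines between steps) in the 9 comparisons of media (columns, hours after transfer), 3 libraries a group. Bold values passed limma's adjusted p of 0.05. The strongest blue is *HEMA1* in the first 6 columns, from −4.08 to −2.10. Against +Fe+P, 6 of the 8 common genes were lower on −Fe−P at 76 h, beside 21.9% of all genes.

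Synthesis of 5-aminolevulinic acid held the largest change of the pathway. *HEMA1* encodes the main glutamyl-tRNA reductase of green tissue. At 39 h it was at 146, 146 and 97.1 TPM on +Fe+P, 15.3, 9.65 and 8.44 TPM on −Fe+P and 18.4, 13.1 and 9.39 TPM on −Fe−P. At 52 h the values were 237, 223 and 251 TPM on +Fe+P, 16.3, 12.5 and 12.03 TPM on −Fe+P and 22.9, 50.9 and 43.4 TPM on −Fe−P. At 76 h they were 288, 326 and 277 TPM, 25.1, 24.7 and 22.3 TPM and 72.6, 67.0 and 67.2 TPM in the same order. Every library without iron was below every +Fe+P library of its time, and the lowest +Fe+P library of the whole series, at 97.1 TPM, was above the highest library without iron, at 72.6 TPM.

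*HEMA1* was 11.3-fold lower on −Fe+P at 39 h (log2 −3.50 ± 0.24 SE, limma adjusted p = 7.76e-10), 17.0-fold lower at 52 h (−4.08 ± 0.24 SE, limma adjusted p = 2.96e-11) and 12.1-fold lower at 76 h (−3.60 ± 0.24 SE, limma adjusted p = 2.64e-10). On −Fe−P the gene was 9.37-fold lower at 39 h, 6.32-fold at 52 h and 4.28-fold at 76 h, with log2 values of −3.23, −2.66 and −2.10. The gap to the control was narrower at 76 h than at 39 h on −Fe−P. There the effects at these times differed by 1.13 ± 0.35 SE, limma adjusted p = 0.0172. That difference was 0.90 without library 3 of −Fe−P at 39 h and did not pass. On −Fe+P the same difference was −0.10 ± 0.35 SE, limma adjusted p = 0.923.

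Without iron, low phosphate went with more *HEMA1* transcript. Direct comparison of −Fe−P with −Fe+P gave 0.28 ± 0.24 SE, limma adjusted p = 0.661 at 39 h, 1.42 ± 0.24 SE, limma adjusted p = 1.04e-04 at 52 h and 1.502 ± 0.24 SE, limma adjusted p = 2.15e-05 at 76 h. *HEMA1* was the 1 gene of the pathway at least 2-fold higher in this comparison at 52 h (1.21% of all genes) and at 76 h (4%). At both times the libraries of the media did not overlap.

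*HEMA2* encodes another glutamyl-tRNA reductase, known for expression in roots and for its low response to light. On +Fe+P its mean was 13.9 ± 2.15 TPM at 39 h, 12.7 ± 0.953 at 52 h and 14.1 ± 0.221 at 76 h. On −Fe+P the means were 9.78 ± 1.80, 11.8 ± 1.32 and 25.5 ± 2.10 TPM, and on −Fe−P 9.12 ± 1.34, 13.8 ± 2.13 and 18.8 ± 2.41 TPM. The gene was thus below the control at 39 h and above it at 76 h, with log2 fold changes on −Fe+P of −0.49 and 0.83, both of which passed. The earlier of these did not pass without library 1 or 2 of +Fe+P or library 2 or 3 of −Fe+P, at −0.51, −0.38, −0.43 and −0.42. The change of the effect between those times passed on −Fe+P (1.32 ± 0.19 SE, limma adjusted p = 3.26e-04) and on −Fe−P (0.98 ± 0.19 SE, limma adjusted p = 6.05e-04). On −Fe−P the rise at 76 h was 0.39, and it did not pass without library 1 or library 3 of that group, at 0.34 and 0.34, nor after median-of-ratios scaling, at 0.27.

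The gap between the reductase genes was narrower without iron. In the 3 libraries of +Fe+P at 76 h the *HEMA1* level was 19.8 to 22.7 times that of *HEMA2*. On −Fe+P at 76 h the ratio was 0.886 to 1.02, so the 2 transcripts were nearly level, and on −Fe−P it was 3.34 to 4.19.

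**Figure D2:**
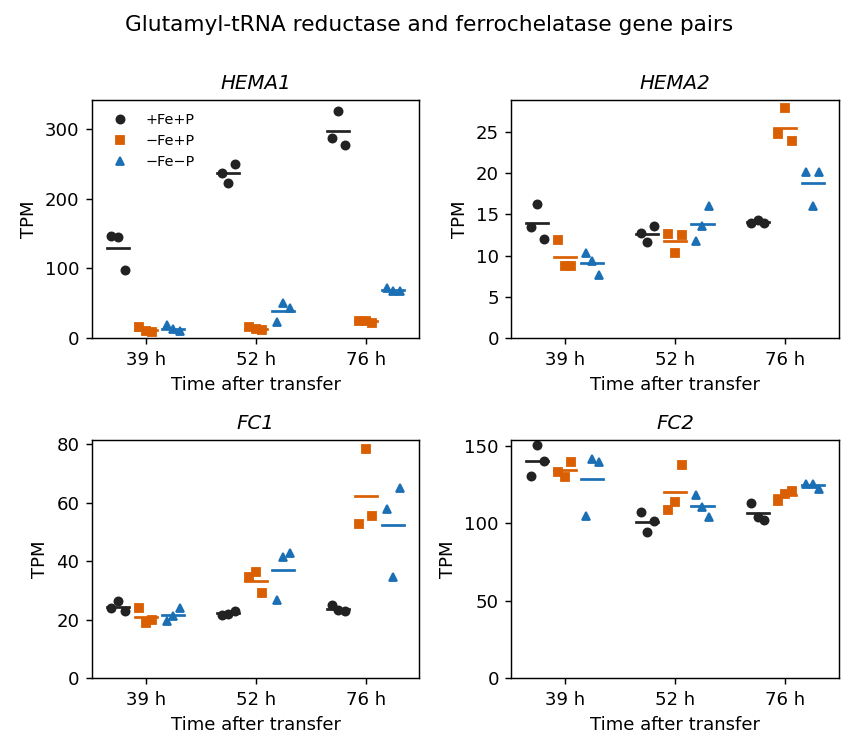
TPM of the glutamyl-tRNA reductase genes *HEMA1* and *HEMA2* and the ferrochelatase genes *FC1* and *FC2* by time after transfer; points are libraries, bars the means of 3, vertical scales start at 0 and differ between panels. At 76 h *HEMA1* was at 22.3 to 25.1 TPM on −Fe+P against 277 to 326 TPM on +Fe+P, while *HEMA2* and *FC1* were higher without iron.

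The other genes of this step act around the reductase. *GSA1* (AT5G63570) and *GSA2* (AT3G48730) encode glutamate-1-semialdehyde aminomutases, which form 5-aminolevulinic acid, *FLU* (AT3G14110) encodes a repressor of the reductase, and *GBP* (AT3G21200) encodes a protein that binds the reductase in thylakoids. On −Fe+P none of these passed at 39 or 52 h, and at 76 h only *FLU* did, at 142 ± 7.25 TPM against 111 ± 9.60 (log2 0.36). On −Fe−P at 76 h all of these genes were lower. *GSA1* was at 77.9 ± 10.11 TPM against 135 ± 6.35 on +Fe+P (log2 −0.80). *GSA2* was at 111 ± 14.0 against 196 ± 12.3 TPM (log2 −0.83). *GBP* stood at 89.5 ± 5.79 against 118 ± 5.68 TPM and *FLU* at 94.95 ± 14.3 against 111 ± 9.60 TPM (log2 −0.40 and −0.23). The call on *FLU* did not pass without library 2 of −Fe−P at 76 h, at −0.10, or without library 1 of +Fe+P, at −0.16.

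Of the 8 genes of the common porphyrin steps, 1 was lower and 2 were higher on −Fe+P at 76 h, beside 9.43% and 29.5% of all genes. *HEMB1* (AT1G69740) encodes 5-aminolevulinic acid dehydratase, *HEMC* (AT5G08280) porphobilinogen deaminase and *HEMD* (AT2G26540) uroporphyrinogen III synthase. *HEME1* (AT3G14930) and *HEME2* (AT2G40490) encode uroporphyrinogen decarboxylases, *HEMF1* (AT1G03475) coproporphyrinogen oxidase, and *PPOX1* (AT4G01690) and *PPOX2* (AT5G14220) protoporphyrinogen oxidases. On −Fe+P at 76 h their log2 fold changes lay between −0.24 (*HEME2*, lower) and 0.32 (*PPOX2*, higher), and *HEMB1*, at 0.22, was the other to pass. *HEME2* did not pass without library 2 of +Fe+P or library 1 of −Fe+P, at −0.22 and −0.20. *HEMB1* did not pass under most alternatives, among them median-of-ratios scaling, at 0.09. The annotation of *PPOX2* shares 228 bases with AT5G14210 on the same strand, which was at 23.1 to 36.5 TPM, so its level is uncertain to that extent.

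On −Fe−P at 76 h 6 of the 8 common genes were lower, beside 21.9% of all genes. *HEME2* was at 125 ± 16.0 TPM against 222 ± 6.88 on +Fe+P and 187 ± 9.69 on −Fe+P. *HEME1* was at 88.4 ± 15.2, 150.0 ± 9.26 and 129.8 ± 5.82 TPM in the same order of media. *HEMC* was at 155 ± 6.41, 264 ± 18.0 and 279.7 ± 22.1 TPM. All 3 were lower than in the control by a like amount, with log2 fold changes against +Fe+P of −0.83, −0.77 and −0.76. *HEMB1*, *HEMF1* and *PPOX1* were lower by smaller amounts, at −0.57, −0.50 and −0.39. The 2 exceptions were *HEMD*, with 43.9 ± 1.40 TPM against 41.1 ± 1.68, and *PPOX2*, with 28.1 ± 1.39 against 25.1 ± 0.628 TPM, neither of which passed at 76 h. At 52 h *HEMC*, *HEME1* and *HEME2* were already lower on −Fe−P, at −0.32, −0.40 and −0.46. Of these, *HEMC* did not pass without library 1 or 3 of +Fe+P or library 2 or 3 of −Fe−P at 52 h, with values from −0.31 to −0.25. Summed over the 8 genes, +Fe+P, −Fe+P and −Fe−P held 1184 ± 60.7, 1181 ± 67.4 and 782 ± 57.3 TPM at 76 h.

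Magnesium chelatase directs protoporphyrin IX to chlorophyll and has the subunits H, I and D, with GUN4 as the protein that binds the porphyrin and stimulates the enzyme. *CHLH* encodes the large, porphyrin-binding subunit. At 39 h *CHLH* was at 371, 378 and 295 TPM on +Fe+P, 168, 109.7 and 111 TPM on −Fe+P and 167, 145 and 143 TPM on −Fe−P. At 52 h the libraries held 730.1, 546 and 711 TPM on +Fe+P, 394, 342 and 346 TPM on −Fe+P and 264, 523 and 410.0 TPM on −Fe−P. At 76 h they held 692, 954 and 815, then 269.7, 269 and 264, then 452, 405 and 438 TPM. No library without iron reached a +Fe+P library of its time, and at 76 h −Fe−P lay wholly between the other media.

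*CHLH* was 2.71-fold lower on −Fe+P at 39 h (−1.44 ± 0.19 SE, limma adjusted p = 1.48e-05) and 3.04-fold lower at 76 h (−1.60 ± 0.19 SE, limma adjusted p = 7.30e-07). At 52 h *CHLH* was lower by −0.87, and its effects at 76 and 52 h did not differ by a passing amount (−0.74 ± 0.27 SE, limma adjusted p = 0.282). On −Fe−P it was 2.28-fold lower at 39 h (−1.19 ± 0.19 SE, limma adjusted p = 8.88e-05), and the later values were −0.77 at 52 h and −0.92 at 76 h. The direct difference of −Fe−P from −Fe+P passed at 76 h (0.69 ± 0.19 SE, limma adjusted p = 0.00399) and not at 39 or 52 h, at 0.25 and 0.09.

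At 39 h the libraries of *GUN4* held 156, 153 and 153 TPM on +Fe+P, 101, 81.3 and 91.9 TPM on −Fe+P and 135, 102 and 97.1 TPM on −Fe−P. The values at 52 h were 255, 250.2 and 310.3 TPM on +Fe+P, 168, 174 and 240.4 TPM on −Fe+P and 176, 219.7 and 167 TPM on −Fe−P. The values at 76 h were 251, 273 and 253, then 106, 113 and 97.3, then 143, 191 and 147 TPM. Libraries without iron were below the controls at each time, closest at 52 h, when 1 −Fe+P library at 240.4 TPM came near the lowest control at 250.2 TPM. *GUN4* was 2.45-fold lower on −Fe+P at 76 h (−1.29 ± 0.14 SE, limma adjusted p = 3.55e-07) and −0.70 on −Fe−P on the log2 scale, and the difference between the media passed (0.59 ± 0.14 SE, limma adjusted p = 0.00152). At 52 h the fall of −0.50 on −Fe+P did not pass without library 3 of +Fe+P, library 1 of −Fe+P or library 2 of −Fe+P, at −0.40, −0.40 and −0.43. The annotation of *GUN4* shares 946 bases with *GCN2* (AT3G59410) on the opposite strand, which was at 5.2 to 9.04 TPM, and the use of strand in counting was not stated.

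*CHLI1* (AT4G18480), *CHLI2* (AT5G45930) and *CHLD* (AT1G08520) encode the subunits of the ATP-driven motor. *CHLI1* was at 497 ± 22.8 TPM on +Fe+P, 402 ± 15.1 on −Fe+P and 311 ± 7.59 on −Fe−P at 76 h, and both falls passed, at −0.31 and −0.68. *CHLI2* passed only on −Fe−P (−0.44), from 69.9 ± 5.42 to 51.7 ± 9.09 TPM. *CHLD* was higher on −Fe+P than on +Fe+P, with 164 ± 9.51 against 138 ± 4.81 TPM at 76 h (log2 0.24), a call that did not pass after median-of-ratios scaling, at 0.12, or without library 3 of +Fe+P or library 2 or 3 of −Fe+P, at 0.22, 0.22 and 0.22. Per length, the transcript of the H subunit was thus 821 TPM beside 138 TPM of the D subunit on +Fe+P at 76 h, and 268 beside 164 TPM on −Fe+P.

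**Figure D3:**
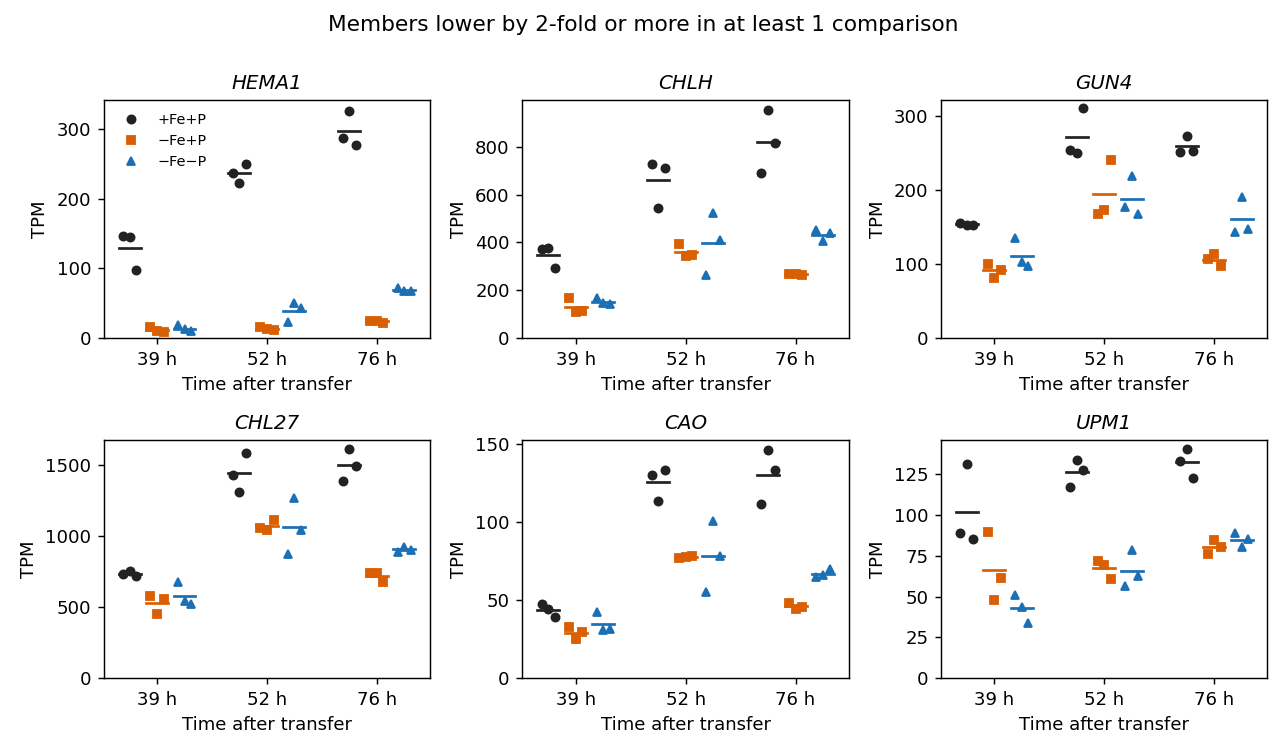
TPM of the 6 genes that were at least 2-fold lower than +Fe+P in at least 1 comparison, by time after transfer; points are libraries, bars the means of 3, and every vertical axis starts at 0. At 76 h the −Fe−P libraries of *HEMA1*, *CHLH*, *GUN4*, *CHL27* and *CAO* lay between those of −Fe+P, the lowest, and +Fe+P, the highest.

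Among the later chlorophyll steps, *CHL27* encodes the catalytic, iron-containing subunit of the cyclase. Its libraries at 39 h were at 732, 752 and 718 TPM on +Fe+P, 581, 452 and 554 TPM on −Fe+P and 677, 542 and 519.5 TPM on −Fe−P. At 52 h they were at 1433, 1308 and 1583 TPM on +Fe+P, 1058, 1044 and 1117 TPM on −Fe+P and 871, 1269.9 and 1046 TPM on −Fe−P. At 76 h they were at 1387, 1617 and 1492, then 743, 738 and 679.8, then 888, 927 and 905 TPM. Control libraries were above all others at each time, and at 76 h the 3 media were fully separate. The gene was 2.08-fold lower on −Fe+P at 76 h (−1.05 ± 0.12 SE, limma adjusted p = 4.11e-07), and −0.72 on −Fe−P on the log2 scale. The effect of −Fe+P was stronger at 76 h than at 39 h (−0.58 ± 0.17 SE, limma adjusted p = 0.037), a difference that lost its call in 12 of the alternatives, among them replicate number as a block (limma adjusted p = 0.05003) and 10 of the 12 fits that left out 1 library. The direct difference of the media at 76 h was 0.33 ± 0.12 SE, limma adjusted p = 0.0227, and it did not pass without library 3 of −Fe+P or library 2 of −Fe−P, at 0.29 and 0.32.

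*YCF54* (AT5G58250) encodes another protein needed by the same cyclase, and its transcript did otherwise. On −Fe+P it differed from the control by 0.15, 0.15 and 0.05 at 39, 52 and 76 h, none of which passed. On −Fe−P it was at 151 ± 8.37 TPM at 76 h, against 286 ± 29.7 on +Fe+P and 296 ± 26.5 on −Fe+P. Against −Fe+P this was −0.96 ± 0.11 SE, limma adjusted p = 8.22e-08, the largest fall of the 32 genes in that comparison. The annotation of *YCF54* shares 211 bases with *NdhN* (AT5G58260) on the opposite strand, which was at 119 to 235 TPM.

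*CAO* encodes chlorophyllide a oxygenase, an iron-sulfur and mononuclear iron enzyme that makes chlorophyll b. At 39 h *CAO* was at 47.8, 44.5 and 39.4 TPM on +Fe+P, 32.5, 24.9 and 29.9 TPM on −Fe+P and 42.4, 31.0 and 31.6 TPM on −Fe−P. At 52 h it was at 130.2, 113 and 133 TPM on +Fe+P, 77.0, 77.3 and 78.2 TPM on −Fe+P and 55.5, 101 and 77.9 TPM on −Fe−P. At 76 h the values were 111, 146 and 133, then 47.9, 44.3 and 45.6, then 65.0, 65.96 and 70.0 TPM. The −Fe−P libraries overlapped the controls at 39 h only, where 1 of them, the library that stood apart, was at 42.4 TPM. On −Fe+P *CAO* was 2.80-fold lower at 76 h (−1.48 ± 0.15 SE, limma adjusted p = 1.38e-07), more than at 39 h by −0.90 ± 0.22 SE, limma adjusted p = 0.013. On −Fe−P at 76 h it was lower than the control by −0.95 and above −Fe+P by 0.54 ± 0.15 SE, limma adjusted p = 0.00543.

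The other chlorophyll genes changed less. *DVR* (AT5G18660), for divinyl reductase, was lower in both media at 76 h, at −0.30 and −0.51. *PORB* (AT4G27440), a light-dependent protochlorophyllide oxidoreductase, was at 312 ± 41.7 TPM on +Fe+P, 218 ± 12.7 on −Fe+P and 209 ± 38.1 on −Fe−P at 76 h, and both falls passed. *PORC* (AT1G03630), the form of illuminated leaves, fell only on −Fe+P, to 184 ± 6.73 TPM from 244 ± 8.09 (log2 −0.41), and was higher on −Fe−P than on −Fe+P (0.32 ± 0.08 SE, limma adjusted p = 0.00144). *CHLG* (AT3G51820), for chlorophyll synthase, was lower on −Fe−P by −0.22 and did not pass on −Fe+P at −0.03. The call on *CHLG* on −Fe−P did not pass without library 1 of +Fe+P or library 2 of −Fe−P, at −0.18 and −0.11. *CHLM* (AT4G25080), the magnesium protoporphyrin methyltransferase, passed in 1 comparison of media, −Fe+P at 52 h (−0.24), and lost that call without any of 4 libraries, library 1 or 3 of +Fe+P and library 2 or 3 of −Fe+P, with values from −0.23 to −0.18.

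The heme branch held the main rise. *FC1* encodes the ferrochelatase found in all organs and linked to stress, and *FC2* (AT2G30390) the one of green tissue. At 39 h *FC1* was at 23.9, 26.4 and 22.9 TPM on +Fe+P, 23.9, 18.8 and 19.9 TPM on −Fe+P and 19.6, 21.3 and 23.9 TPM on −Fe−P. At 52 h it was at 21.5, 21.8 and 23.1 TPM on +Fe+P, 34.6, 36.2 and 29.2 TPM on −Fe+P and 26.7, 41.6 and 42.8 TPM on −Fe−P. At 76 h it was at 24.9, 23.3 and 23.0, then 52.5, 78.3 and 55.4, then 57.7, 34.6 and 65.1 TPM. The media overlapped at 39 h, and from 52 h on every library without iron was above every control, with a wide spread among them.

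*FC1* was 2.55-fold higher on −Fe+P at 76 h (1.35 ± 0.19 SE, limma adjusted p = 6.51e-06) and 2.12-fold higher on −Fe−P (1.08 ± 0.19 SE, limma adjusted p = 4.39e-05). The second value was 0.90 without library 3 of −Fe−P, 0.99 without library 1 and 0.95 after median-of-ratios scaling, all of which passed but were under 2-fold. From 39 to 76 h the effect rose by 1.58 ± 0.27 SE, limma adjusted p = 8.33e-04 on −Fe+P and by 1.26 ± 0.27 SE, limma adjusted p = 0.00119 on −Fe−P. The media did not differ by a passing amount at 76 h (−0.27 ± 0.19 SE, limma adjusted p = 0.246). *FC2* passed in no comparison of media, with 107 ± 5.85, 118 ± 3.22 and 125 ± 2.08 TPM at 76 h. The *FC2* to *FC1* ratio was 4.45 to 4.55 in the +Fe+P libraries and 1.52 to 2.18 in those of −Fe+P at 76 h.

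Downstream of heme, *HY1* (AT2G26670), the main heme oxygenase, stayed between 97.3 and 127 TPM in all libraries and passed in no comparison. *HY2* (AT3G09150), which makes the bilin of phytochrome, was at 15.9 ± 1.69 TPM on +Fe+P, 18.9 ± 0.801 on −Fe+P and 14.8 ± 0.687 on −Fe−P at 76 h. Its rise on −Fe+P (0.24) did not pass after median-of-ratios scaling, at 0.12, and without library 3 of +Fe+P or of −Fe+P, at 0.16 and 0.22.

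On the siroheme side, *UPM1* (AT5G40850) encodes the uroporphyrinogen methyltransferase that opens the branch. At 39 h *UPM1* was at 88.8, 131 and 85.4 TPM on +Fe+P, 89.4, 48.0 and 61.4 TPM on −Fe+P and 51.2, 43.5 and 33.9 TPM on −Fe−P. At 52 h it was at 117, 134 and 128 TPM on +Fe+P, 71.9, 69.5 and 60.7 TPM on −Fe+P and 56.5, 78.2 and 62.9 TPM on −Fe−P. At 76 h it was at 133, 140.4 and 123, then 76.2, 84.5 and 80.6, then 88.7, 80.3 and 85.2 TPM. At 39 h 1 library of −Fe+P overlapped the controls, and at 52 and 76 h both media without iron were wholly below them and overlapped each other. *UPM1* was 2.35-fold lower on −Fe−P at 39 h (−1.23 ± 0.18 SE, limma adjusted p = 3.37e-05). At 76 h the falls were −0.71 on −Fe+P and −0.64 on −Fe−P, and the media did not differ by a passing amount (0.07 ± 0.18 SE, limma adjusted p = 0.752). On −Fe+P at 39 h the fall of −0.63 passed, but not without library 1 or 2 of +Fe+P or library 2 or 3 of −Fe+P, at −0.72, −0.44, −0.43 and −0.60.

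Set side by side at 76 h, the media without iron differed in both directions across the pathway. In the direct comparison of −Fe−P with −Fe+P, none of the 32 genes passed in either direction at 39 h (2.07% of all genes were lower and 2.87% higher). At an unadjusted p under 0.05 the count was 1, beside 17% of all genes. At 52 h 12 were lower (17.4% of all) and 1 higher (9.77%), and at 76 h 18 were lower (28.8%) and 6 higher (22.5%). The 6 were 18.8% of the 32 genes, which is not above the share of all genes. The 6 higher genes were the 5 that had fallen at least 2-fold on −Fe+P, namely *HEMA1*, *CHLH*, *GUN4*, *CHL27* and *CAO*, and *PORC*, with log2 differences from 0.32 to 1.502. The 5 were grouped after their values were seen, and the comparison that chose them uses the same −Fe+P libraries. Against +Fe+P at 76 h, all 5 were lower in both media. The 18 lower genes were 5 of the 6 of 5-aminolevulinic acid synthesis, 6 of the 8 of the common steps, 3 of the 5 of magnesium chelatase, 3 of the 8 tested later steps and 1 of the heme and siroheme branches. Those with the largest falls were *YCF54* (−0.96), *GSA1* (−0.93), *HEMC* (−0.84), *GSA2* (−0.79) and *HEMB1* (−0.79). Leaving out 1 library at a time gave 14 to 18 lower genes at 76 h, the fewest without library 2 of −Fe−P. The call on *DVR* was lost in 5 of the alternatives, on *CHLG* in 4, on *CHLI2* in 3 and on *HEMA2* in 2. Median-of-ratios scaling left the median over all genes in this comparison at −0.03.

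Some markers of leaf, root and seed and some genes of the clock differed between the media at 76 h as well. Of the 4 leaf mesophyll markers, 3 were lower on −Fe+P than on +Fe+P at 76 h, beside 9.43% of all genes. The sum of the 4 was 33839.5 to 37611.0 TPM on −Fe+P, 40451.0 to 46314.0 TPM on −Fe−P and 44190.1 to 46520.5 TPM on +Fe+P. Root markers summed to 5.90 to 16.3 TPM on +Fe+P, 4.88 to 6.41 TPM on −Fe+P and 8.94 to 19.3 TPM on −Fe−P. Of the 2 tested, 1, *CASP1*, was higher on −Fe−P than on −Fe+P (1.47), beside 22.5% of all genes. Seed markers summed to 0.266 to 0.907, 4.26 to 4.67 and 0.496 to 1.04 TPM in the same order of media. Of the 2 tested, 1, *SESA2*, was higher than in the control on −Fe+P (3.20, beside 29.5% of all genes) and on −Fe−P (1.09, beside 33.7%). Of the 9 circadian clock genes listed, 3 were lower on −Fe+P at 76 h (9.43% of all genes), the morning genes *CCA1* (log2 −1.32), *LHY* (−1.22) and *PRR9* (−1.22). On that medium 2 were higher (29.5% of all), *TOC1* (1.44) and *ELF4* (0.65). On −Fe−P 2 were lower (21.9% of all), *CCA1* (−0.87) and *LHY* (−0.91), and 4 were higher (33.7% of all), *TOC1* (1.37), *ELF4* (1.04), *PRR5* (0.98) and *LUX* (0.56). Their part in the changes of the tetrapyrrole genes was not tested.

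**Figure D4:**
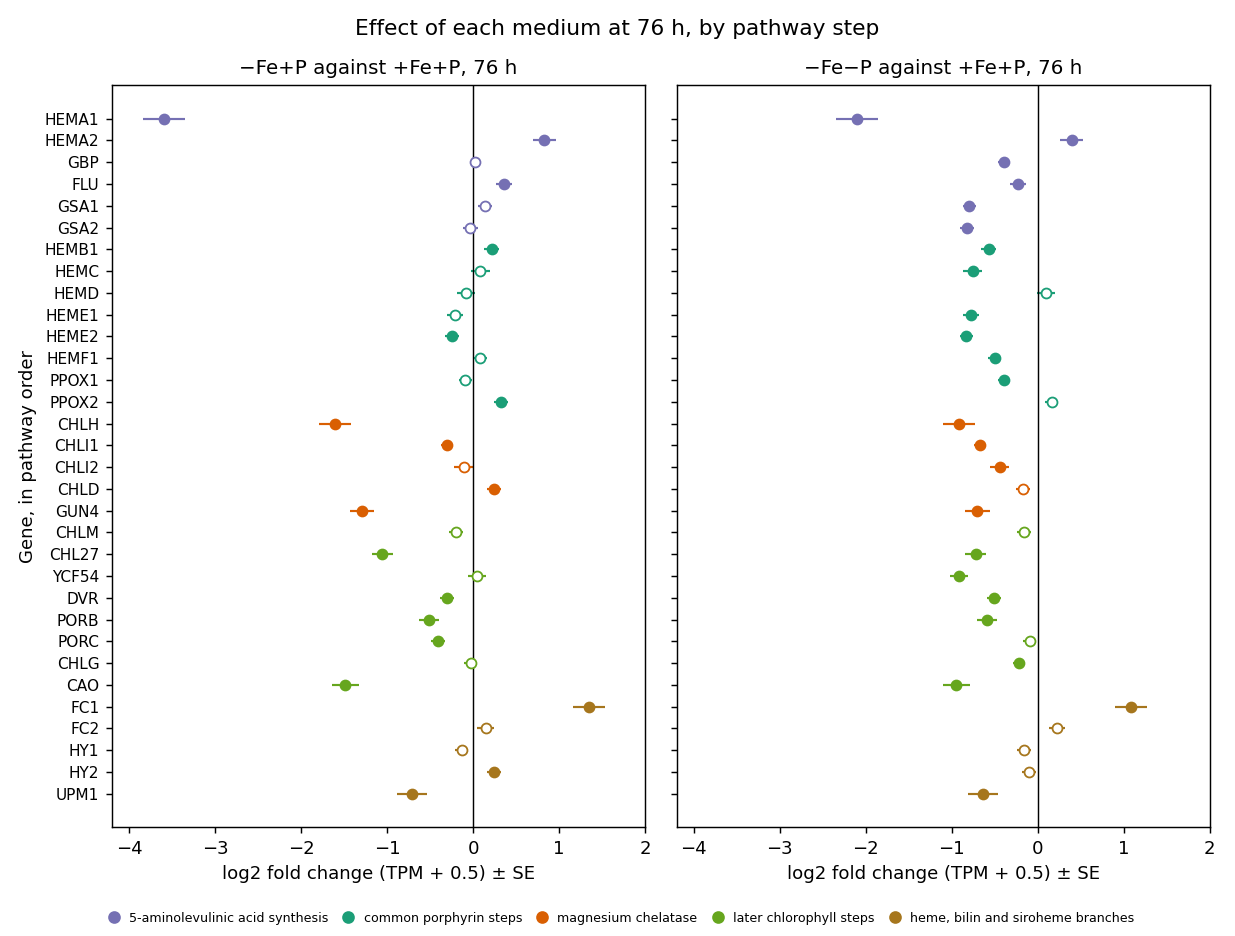
Log2 fold change of log2(TPM + 0.5) ± SE against +Fe+P at 76 h for the 32 tested genes in pathway order, −Fe+P on the left and −Fe−P on the right; filled points passed limma's adjusted p of 0.05, open points did not, and colours give the step. On the left 11 genes were lower (9.43% of all genes) and 7 higher (29.5%), with *HEMA1* at −3.60. On the right 22 were lower (21.9%) and 2, *HEMA2* and *FC1*, were higher (33.7%).

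Time was compared within each medium. On +Fe+P between 39 and 52 h, 5 genes rose (3% of all genes) and 6 fell (8.42% of all). The 5 that rose were *CAO* (1.51), *CHL27* (0.97), *CHLH* (0.92), *HEMA1* (0.89) and *GUN4* (0.81), the same 5 genes that were at least 2-fold lower on −Fe+P at 76 h. The 6 that fell were *FC2* (−0.47), *HEMF1* (−0.37), *GSA2* (−0.31), *PPOX2* (−0.29), *HEMB1* (−0.27) and *GSA1* (−0.26). Of these falls, that of *HEMB1* lost its call in 10 of the alternatives, *GSA1* in 6, and *GSA2* and *PPOX2* in 5 each. The rise of *HEMA1* lost its call in 2. Between 52 and 76 h on +Fe+P none of the 32 genes passed, as for nearly all genes (0% lower and 0.0212% higher). There 1 had an unadjusted p under 0.05, beside 5.78% of all genes. Over the same first interval on +Fe+P 4 of the 9 clock genes rose, *CCA1* (2.41), *LHY* (2.21), *PRR9* (2.10) and *PRR7* (1.90), and 2 fell, *ELF4* (−1.07) and *TOC1* (−0.89). The part of the clock was not tested, and hours after transfer and clock phase cannot be told apart between 39 and 52 h.

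On −Fe+P 5 genes rose from 39 to 52 h (10.9% of all) and none fell (6.01%). They were *CHLH* (1.497), *CAO* (1.41), *GUN4* (1.07), *CHL27* (1.03) and *FC1* (0.67). *HEMA1*, at 0.31, did not pass there, and *FC1* lost its call in 3 of the alternatives. From 52 to 76 h 5 genes fell (6.05% of all) and 3 rose (5.29%). The falls were those of *GUN4* (−0.86), *CAO* (−0.75), *CHL27* (−0.58), *PORC* (−0.29) and *CHLI1* (−0.24), and the rises those of *HEMA2* (1.08), *FC1* (0.87) and *HEMA1* (0.81). Of the falls, that of *CHLI1* lost its call in 4 of the alternatives and that of *PORC* in 2. The rise of *HEMA1* did not pass in 5 of the 6 fits that left out 1 library, at 0.73 to 0.86.

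On −Fe−P more genes moved with time. Between 39 and 52 h 13 fell (19.7% of all) and 8 rose (15.6%), the rises being those of *HEMA1*, *CHLH*, *CAO*, *CHL27*, *GUN4*, *FC1*, *UPM1* and *HEMA2*, from 1.46 for *HEMA1* to 0.57 for *HEMA2*. Between 52 and 76 h 14 fell (14.2%) and 2 rose (9.48%), *HEMA1* (0.89) and *HEMA2* (0.43). Largest among the later falls were *YCF54* (−0.50), *PORB* (−0.46) and *GSA2* (−0.45). The rises of 52 to 76 h did not pass without library 1 of −Fe−P at 52 h, when the count was 0.

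The change of each medium's effect with time was tested as an interaction. Clock genes changed between 39 and 52 h on +Fe+P, so hours after transfer and clock phase cannot be told apart in changes from 39 h. On −Fe+P 2 genes had a more negative effect at 76 h than at 39 h (1.4% of all) and 2 a more positive one (6.16%), while against 52 h none was more negative (0.0899%) and 1 more positive (0.132%). On −Fe−P 14 were more negative at 76 h than at 39 h (13.6%) and 3 more positive (15.1%), and against 52 h 6 were more negative (3.91%) and none more positive (1.58%). The 3 with a more positive effect on −Fe−P were *HEMA1*, *HEMA2* and *FC1*. Of the 14, *YCF54* (−0.89), *HEME2* (−0.76) and *GSA2* (−0.65) moved most.

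Other genes of the pathway and its regulators were counted from lists. Of 16 further pathway genes 12 were tested. At 76 h 2 were lower (9.43% of all genes) and 3 higher (29.5%) on −Fe+P, and 3 lower (21.9%) and 2 higher (33.7%) on −Fe−P. None of these calls reached 2-fold, and the median log2 fold change of the 12 was 0.08 on −Fe+P and −0.07 on −Fe−P. The lower ones on −Fe+P were *CHLP*, which encodes the geranylgeranyl reductase that makes the phytol tail, and *OHP1*. *CHLP* was lower in both media at each time, with −0.86 on −Fe+P and −0.69 on −Fe−P at 76 h, and it and *OHP1* are named after their values were seen. Of 16 regulators, all tested, 4 were lower and 4 higher at 76 h in each medium without iron, beside 9.43% of all genes lower and 29.5% higher on −Fe+P and 21.9% and 33.7% on −Fe−P. *GLK2*, a transcription factor of chloroplast development, was at 104 ± 1.69 TPM on +Fe+P, 50.7 ± 1.96 on −Fe+P and 75.1 ± 5.56 on −Fe−P at 76 h, a log2 fold change of −1.03 on −Fe+P and −0.47 on −Fe−P. *PIF3*, a factor that represses chlorophyll genes in the dark, was at 6.50 ± 0.179 TPM on +Fe+P, between 8.84 and 11.2 TPM on −Fe+P, and at 19.1 ± 1.11 TPM on −Fe−P, up by 1.48 on −Fe−P and by 0.58 on −Fe+P. The regulators' part in the changes of the pathway genes was not tested.

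Summed over all 33 genes, the level at 76 h was 7314 ± 349 TPM on +Fe+P, 5224 ± 188 on −Fe+P and 4771 ± 229 on −Fe−P (SD, n = 3). The later chlorophyll steps made up the largest sum in each, 3077 ± 123, 1999 ± 34.0 and 2068 ± 84.7 TPM. The sums of the 5 genes of the heme, bilin and siroheme branches were 398 ± 12.4, 388 ± 24.5 and 384 ± 26.2 TPM, in which the rise of *FC1* stood beside the fall of *UPM1*.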

How the data were processed

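Polyadenylated RNA from whole shoots of 27 samples was sequenced as KAPA RNA HyperPrep libraries. The submitters' processing notes name HISAT2, DESeq2 and the TAIR10 genome; how transcripts were counted, whether strand was used and how TPM was computed are not given in the sources used here. The authors deposited 1 table of TPM values, which sum to 1000000 in each sample, for 33602 genes. All values were steps of whole reads (tolerance 0.02 reads) for the 24561 genes above 0 in at least 10 samples, which gave 25.574 to 56.503 megareads per sample; genes with a mean near 1 TPM rested on a median of 35 reads per sample. No count test was run.

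Groups came from the sample labels. Values were tested as log2(TPM + 0.5) with limma 3.58.1 in R 4.3.3, in 1 fit of the 9 groups with a mean-variance trend, for the 18910 genes that averaged 1 TPM or more. P-values were adjusted by the Benjamini-Hochberg method within each of 9 comparisons of media, 6 of times and 4 interactions. Tables and plots used Python 3.11.15, pandas 2.3.3, numpy 2.4.6 and matplotlib 3.10.9. The fitting code was tested on simulated data. Alternatives were other pseudocounts, filters and variance settings, median-of-ratios scaling, a replicate block, fits of only the groups compared, and leaving out each sample. Replicate numbers paired the samples, by a correlation of deviations over 0.1 in all 3 pairs (0.131, 0.272 and 0.285), only in −Fe+P against +Fe+P at 52 h; over all 27 pairs the correlation ran from −0.415 to 0.365.

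The genes and lists were chosen with earlier results of these data known. Values in every sample are printed for genes of the pathway that changed at least 2-fold with an adjusted p under 0.05 in a comparison of media, and group means or ranges for the rest; genes of the regulator and further pathway lists are named where they passed at 2-fold in a comparison of media, and others as markers beside a result or as stated. Upstream sequences and gene positions came from RefSeq TAIR10.1, in which 32835 identifiers of the table and all 33 genes were found. Of the 33, 19 overlap another gene, and 16 overlap a gene on the opposite strand. No protein sequences were used here.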

Additional observations from a re-analysis of the deposited data

Results flagged for a closer look

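A difference between times in the effect of a medium, tested as an interaction in the same limma fit, passed an adjusted p of 0.05 for 28 results. Values are the log2 effect against +Fe+P at 76 h minus that at the earlier time, and the media share the +Fe+P libraries. In those against 39 h, hours after transfer and clock phase cannot be told apart.

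On −Fe+P, the effect was more positive at 76 h than at 39 h for *FC1* (1.58) and *HEMA2* (1.32) and more negative for *CAO* (−0.90) and *CHL27* (−0.58). Against 52 h it was more positive for *HEMA2* (0.93), a call lost in 12 of the alternatives, among them replicate number as a block (limma adjusted p = 0.0561). The call on *CHL27* was also lost in 12.

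On −Fe−P, the effect was more positive at 76 h than at 39 h for *FC1* (1.26), *HEMA1* (1.13) and *HEMA2* (0.98). It was more negative for *YCF54* (−0.89), *HEME2* (−0.76), *GSA2* (−0.65), *GSA1* (−0.63), *CAO* (−0.61), *HEMC* (−0.56), *CHLI1* (−0.54), *HEME1* (−0.53), *HEMB1* (−0.51), *HEMF1* (−0.48), *FLU* (−0.46), *CHLI2* (−0.45), *PPOX1* (−0.34) and *GBP* (−0.30). Against 52 h it was more negative for *YCF54* (−0.54), *GSA2* (−0.51), *GSA1* (−0.47), *HEMB1* (−0.45), *HEMF1* (−0.42) and *CHLI1* (−0.37). Of the calls against 39 h on −Fe−P, that on *CAO* was lost in 8 of the alternatives, on *CHLI2* in 7, on *GBP* in 6 and on *HEMA1* in 1. Of those against 52 h, that on *YCF54* was lost in 9, on *CHLI1* and *HEMB1* in 8 each, on *HEMF1* in 5, on *GSA1* in 3 and on *GSA2* in 1. Without library 1 of −Fe−P at 52 h, the count of calls against 52 h was 1 in place of 6.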

How the results depend on the processing

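Of 214 results of single genes that passed, none reversed and 130 kept their call in every alternative run; 72 lost it in at least 1 setting that kept all samples and 67 when 1 sample was left out. All calls of at least 2-fold between media still passed in every alternative. Counts of genes below are lower or higher than the group named second. Median-of-ratios scaling took the median of all genes from 0.16 to −0.01 in −Fe+P at 52 h, from 0.11 to −0.01 in −Fe−P at 52 h and from −0.10 to −0.01 for 52 against 39 h in +Fe+P. With it, against +Fe+P, −Fe−P at 39 h had 12 lower, −Fe+P at 52 h 1 higher, −Fe−P at 52 h 23 lower, −Fe+P at 76 h 17 lower and 4 higher, and −Fe−P at 76 h 1 higher; −Fe−P against −Fe+P at 52 h had 2 higher; for 52 against 39 h, +Fe+P had 2 lower and −Fe+P 5 lower; and 5 effects of −Fe+P were more negative at 76 than at 39 h. With only the groups compared in the fit, −Fe−P at 39 h had 4 lower and 0 higher, −Fe+P at 52 h 6 lower, and −Fe−P against −Fe+P at 52 h 2 lower; −Fe−P had 5 lower for 52 against 39 h and 3 lower and 0 higher for 76 against 52 h; the more negative effects were 4 (−Fe+P, 76 against 39 h), 2 (−Fe+P, 76 against 52 h) and 0 (−Fe−P, 76 against 52 h). With no filter, and with the replicate block, 1 effect of −Fe+P was more negative at 76 than at 39 h and 0 were more positive at 76 than at 52 h. Shares of all genes were not counted in the alternatives, so these counts have no background beside them. The cause of these shifts was not tested.

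The replicate block changed no call in −Fe+P against +Fe+P at 52 h, where numbers paired the samples (10 lower, 4 higher). Elsewhere it ended 5 calls: *CHL27* in −Fe−P at 39 h (limma adjusted p = 0.0598), *HEMB1* in −Fe+P at 76 h (0.0587) and for 52 against 39 h in +Fe+P (0.0594), and the interactions of *CHL27* and *HEMA2* given above.

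Leaving out 1 sample at a time gave these ranges. Against +Fe+P, −Fe+P had 3 to 8 lower at 39 h (3 without library 1 of +Fe+P), 6 to 9 lower (6 without library 3 of +Fe+P) and 2 to 5 higher at 52 h, and 4 to 7 higher at 76 h (4 without library 3 of +Fe+P); −Fe−P had 0 to 1 higher at 39 h and 1 to 3 higher at 76 h. −Fe−P against −Fe+P had 0 to 1 lower at 39 h, 8 to 12 at 52 h and 14 to 18 at 76 h. For 52 against 39 h, +Fe+P had 2 to 6 lower, −Fe+P 0 to 1 and −Fe−P 8 to 15. For 76 against 52 h, −Fe+P had 3 to 5 lower and −Fe−P 0 to 3 higher. Effects of −Fe+P were more negative at 76 than at 39 h for 1 to 2 genes and more positive than at 52 h for 0 to 1; those of −Fe−P were more negative than at 52 h for 1 to 8. TPM limits precision for low genes, but no tested gene of the pathway had under 513 reads in a sample.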
